A study of Homo sapiens and Mus musculus with 15 samples.

Results

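B cells were a rare population of the dissociated mouse retinal pigment epithelium (RPE) and choroid. They comprised 131 of the 30865 cells kept from 2 single-cell RNA-seq libraries, with 82 of 15198 kept cells from aged mice (24 months) and 49 of 15667 from young mice (3 months). The RPE and choroid of C57BL/6J mice at both ages had been dissociated with papain and captured with 10x 5′ v2 chemistry, and the study analysed these libraries again in search of surface markers of RPE ageing. There was 1 library per age. How many mice each library pooled is not given in the sources used here, and the condition entry of both libraries names an old sample, so the age entry was used to tell them apart. Bulk RNA-seq of eye cups without retina from old C57BL/6J mice, 2 treated with the LATS kinase inhibitor TRULI and 2 without it, was the other readout used. A difference between the ages in the single-cell libraries cannot be told apart from a difference between these libraries, no test over samples was possible, and every interval below is an exact 95% interval that covers counting error only.

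B cells recognise antigen through a surface immunoglobulin built from a heavy chain and a kappa or lambda light chain, each with a variable region that is rearranged once in a cell and inherited by its daughters. Cd79a and Cd79b carry the signal of this receptor into the cell. After activation some B cells become plasma cells, which lose most surface receptor and antigen presentation genes and fill with transcripts of secreted antibody. IgA and IgM are secreted as polymers held together by the J chain, the product of Jchain.

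The members were chosen by their own transcripts. A kept cell had at least 200 genes, at most 10% mitochondrial UMIs (unique molecular identifiers, each counting 1 captured RNA molecule) and no hemoglobin UMI. A B cell had at least 2 UMIs of Cd79a, Cd79b and Ms4a1 together with Cd79a or Ms4a1 present, no UMI of the T cell receptor genes Cd3d, Cd3e and Cd3g, at most 2 UMIs of the macrophage complement genes C1qa, C1qb and C1qc, and less than 4% of its UMIs in 6 RPE genes. The levels of these genes are a description of the choice. Cd79a was present in all 131 cells, and the marker sum was exactly 2 in 4 aged and 1 young B cells. Just outside, 4 aged and 18 young cells met every other condition with a marker sum of 1, and 16 aged and 1 young cells met every other condition but had 4% or more RPE transcripts. The highest RPE share inside was 3.995% in the aged library and 3.196% in the young library, and the lowest outside was 4.35% in the aged library and 4.252% in the young library. Transcripts that the choice did not use bore the label out in most members. Immunoglobulin variable-region transcripts were detected in 80 of 82 aged and 49 of 49 young B cells. One aged member went against the label: with 9843 UMIs it had 1 Cd79a and 1 Cd79b UMI, no variable-region UMI, and 109 UMIs of the myeloid lysozyme gene Lyz2.

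Aged B cells held 316641 UMIs, with a lowest, median and highest cell of 655, 2226 and 28857 UMIs, against 189680 UMIs and 1623, 2802 and 33863 in young B cells. The kept cells together had 82897938 UMIs (median 3699 per cell) in the aged library and 89817876 (median 4586) in the young library. The 2 matrices shared 381 barcodes. No barcode was a B cell in both, and 4 barcodes of aged B cells also occurred in the young matrix. A doublet score above 0.286 was found in 2 aged and 0 young B cells, and these cells were kept.

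B cells took 0.540% (0.429 to 0.669) of kept cells in the aged library and 0.313% (0.231 to 0.413) in the young library, a ratio of 1.73 (1.20 to 2.51). T cells, defined by Cd3 transcripts, took 7.69% (1169 cells) in the aged library and 0.377% (59 cells) in the young library, a ratio of 20.4 (15.7 to 27.0). There were thus 7.01 B cells per 100 T cells in the aged library and 83.1 in the young library. Against macrophages with C1q transcripts, B cells stood at 21.2 per 100 in the aged library and 18.7 in the young library. Among cells with a UMI of the pan-leukocyte gene Ptprc, B cells were 36 of 1953 (1.84%, 1.29 to 2.54) in the aged library and 26 of 550 (4.73%, 3.11 to 6.85) in the young library. The direction of the B cell difference thus turned with the denominator. RPE cells made up 32.8% of aged and 11.8% of young kept cells, and fibroblasts numbered 5002 in the aged library and 8435 in the young library. The limit on RPE transcripts bore on the share too: without it, 98 aged cells (0.645% of kept cells) and 50 young cells (0.319%) qualified. Without the B cells that held a UMI of selected genes of other cell types, 19 aged cells (0.125%) and 25 young cells (0.160%) were left. The direction was then the opposite. The selection did not include every such gene, since the RPE gene Ttr had a UMI in 100% of aged and young B cells.

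A small group of B cells made antibody at high level. Jchain had 131 to 2478 UMIs in 8 of the 82 aged B cells and 2324 UMIs in 1 of the 49 young B cells, and at most 1 UMI in each of the other members. No member lay between 1 and 131 UMIs, so the 9 Jchain-rich cells stood apart without a choice of threshold, although the group was set after these values were seen. They were 9.76% (4.31 to 18.3) of aged and 2.04% (0.0517 to 10.9) of young B cells, and these intervals overlap. With 3415 to 28857 UMIs each they held 36.2% of all aged B cell UMIs, and the young cell held 17.9% of the young ones. Immunoglobulin genes supplied 18.9% to 71.0% of the UMIs of the 8 aged cells and 72.8% of the young cell's.

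Of the 8 aged Jchain-rich cells, 5 carried Igha, the IgA heavy chain, with 672, 401, 209, 193 and 103 UMIs, and no Ighm. The other 3 carried Ighm, the IgM heavy chain, with 501, 422 and 36 UMIs, and no Igha. The single young cell carried Igha with 639 UMIs. Each cell thus expressed 1 of these 2 classes, and none expressed Ighd. An aged and the young IgA cell also had 6 and 7 UMIs of Ighg2b, an IgG heavy chain.

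The secretory genes ran together in these cells. Against the other aged B cells, the 8 aged Jchain-rich cells had 1412 against 89.2 CPM (a gene's UMIs scaled to a common total) of Xbp1, the transcription factor of the secretory program, and 2361 against 282 CPM of Mzb1, a chaperone of immunoglobulin assembly. Txndc5, a disulfide isomerase of the endoplasmic reticulum, stood at 2422 against 124 CPM, and Edem1, which clears misfolded glycoproteins, at 784 against 19.8 CPM. Sdc1, the plasma cell surface proteoglycan CD138, had 17 UMIs spread over 6 of the 8 cells. Prdm1, the repressor that ends the B cell program, had 10 UMIs in 6 cells, and Tnfrsf17, the survival receptor BCMA, 22 UMIs in 5 cells. Irf4, also a gene of plasma cell formation, went the other way at 61.0 against 74.3 CPM. The aged Jchain-rich cell with 3415 UMIs had 1 UMI of Xbp1 and 0 of Mzb1, Sdc1, Prdm1 and Tnfrsf17. Ccr10, a chemokine receptor of IgA plasma cells that home to mucosal surfaces, had 16 UMIs in 5 aged cells and 9 UMIs in the young cell. The genes of the resting B cell were low or at 0. Cd74, the invariant chain of MHC class II, had 7946 CPM in the aged Jchain-rich cells against 19438 CPM in the other aged B cells, and H2-Aa, an MHC class II chain, 192 against 5023 CPM. Pax5, Ebf1, Bank1 and Fcer2a had 0 UMIs in all 9 cells. These cells were grouped by Jchain from the same data, so these differences describe them and were not tested.

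**Figure D1:**
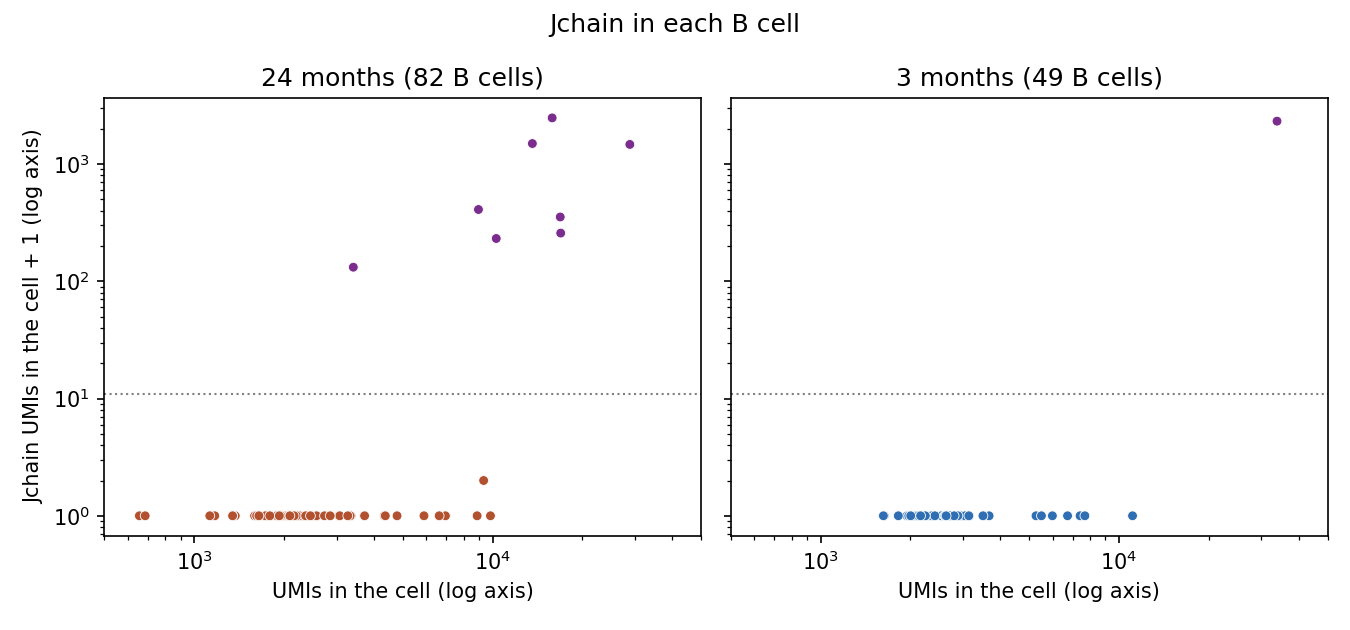
Jchain UMIs plus 1 in each B cell against the cell's total UMIs, on logarithmic axes, with aged (24 months) cells in the left panel, young (3 months) cells in the right panel and a dotted line at 10 UMIs. The 8 aged and 1 young Jchain-rich cells lie at 131 UMIs or more, and every other B cell lies at 0 or 1 UMI.

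The variable genes of the Jchain-rich cells repeated in the aged library. A pair of aged IgM cells both led with Ighv7-3 for the heavy chain and Iglv1 for the light chain, with 5291 and 10931 UMIs in the one and 2751 and 6310 in the other. Their totals were 28857 and 16926 UMIs and their barcodes differed at 12 of 16 bases. In all other kept cells outside the B cell gate, 10 or more Jchain UMIs were found in 9 aged and 0 young cells, 6 of them short of marker UMIs and 4 over the RPE limit, with 1 cell in both sets. With these, 17 of 15198 aged kept cells (0.112%) and 1 of 15667 young kept cells were Jchain-rich. The 8 aged IgM cells among the 17 fell into 4 heavy and light pairs, each found in exactly 2 cells. Beside Ighv7-3 with Iglv1 these were Ighv1-55 with Igkv3-4 (3415 and 1444 UMIs in total), Ighv1-64 with Igkv8-24 (12977 and 1249) and Ighv1-9 with Igkv4-91 (3066 and 1917). The barcodes within these pairs differed at 13, 10 and 13 bases. Of the 9 aged IgA cells, 6 had heavy variable UMIs, with 6 distinct pairs. The remaining IgA cells had no heavy variable UMI, so their pairs could not be compared. Those with 22 and 25 Jchain UMIs led with Iglv1 (6 and 4 UMIs). The one with 28 Jchain UMIs led with Igkv2-137 (3 UMIs), also the light gene of an IgA cell with a pair (113 UMIs). Whether 2 cells with 1 pair are sister cells, 1 cell captured under 2 barcodes, or a cell and its released RNA was not tested. In RPE cells, which should lack these genes, Ighv7-3 was found in 0.02% and Iglv1 in 0.18% of aged cells. Ighv1-55 was found in 0.08% and Igkv3-4 in 0.78% of aged RPE cells.

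Of the other 122 B cells, 74 aged and 48 young, most carried the transcripts of unswitched mature B cells. Ighm or Ighd was detected in 59 aged and 40 young cells, and no heavy constant region in 14 aged and 8 young cells. Ighm was detected in 51 of 74 aged (68.9%) and 32 of 48 young (66.7%) of these cells. It was also found in 10.0% of aged and 25.4% of young T cells, and in 27.6% of aged and 43.5% of young C1q macrophages. Igha was detected in 0 of 74 aged and 0 of 48 young cells, which by a limit of 3 counts allows a share of up to 4.05% of aged and 6.25% of young cells with a UMI. Over all B cells Ighg1, Ighg2c and Ighe had no UMI, Ighg3 had 1 UMI in an aged cell and 0 in young cells, and Ighg2b had 7 UMIs in 2 aged cells and 7 in 1 young cell. A kappa gene led the light chain in 61 of 69 aged and 40 of 44 young cells with at least 2 UMIs of a leading light-chain variable gene. Lambda led in 8 (11.6%, 5.14 to 21.6) aged and 4 (9.09%, 2.53 to 21.7) young cells. Iglc2, a lambda constant region, was also found in 39 of the 61 aged (63.9%) and 31 of the 40 young (77.5%) kappa-led cells. In RPE cells it was found in 0.04% of aged and 0% of young cells. A lambda constant-region UMI therefore did not tell a lambda cell from a kappa cell in these data.

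The repertoire of these 122 cells was broad at both ages. Leading heavy genes comprised 33 distinct genes in 54 aged cells and 25 in 37 young cells, and leading light genes 43 distinct genes in 69 aged cells and 33 in 44 young cells. The median share of the leading gene among a cell's variable UMIs of its chain was 100%. With both chains called, 52 aged cells gave 50 distinct pairs and 34 young cells gave 34. The pairs found in 2 aged cells were Ighv7-3 with Iglv1, the pair of the IgM Jchain-rich cells, and Ighv1-81 with Igkv8-24. Ighv7-3 led in 3 aged cells outside the Jchain-rich group, with 26, 13 and 3 UMIs. Variable genes are close relatives, so reads of near-identical genes may have been divided between them, and a shared pair of gene names is not a shared sequence.

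The defining markers of other B cell states were at or near 0, while less specific members of the same lists were present. No UMI was found in any of the 131 cells for Rgs13, Gcsam and Mybl1 of germinal centre cells, for Rag1, Rag2, Dntt and Igll1 of developing B cells, for the memory marker Cd27, or for Itgax, Cxcr3 and Il12rb1 of age-associated B cells. By the same limit of 3 counts, a count of 0 allows up to 3.66% of aged and 6.12% of young B cells with a UMI. Tbx21, the transcription factor of age-associated B cells, had 3 UMIs in aged and 1 in young B cells, and Fcrl5 6 in aged and 0 in young. Cd5 of B-1 cells had 2 UMIs in aged and 1 in young B cells, and the proliferation gene Mki67 1 in aged and 0 in young. Outside the Jchain-rich group, 3 of 11 marginal zone, 4 of 11 B-1, 4 of 15 age-associated, 1 of 11 germinal centre and 3 of 10 memory list members reached 30 UMIs. The age-associated list summed to 564 UMIs in aged and 319 in young cells, mostly of Apoe (387 in aged and 261 in young), which other cell types also express, and its member at 2-fold or more was Fcer1g. The memory list summed to 287 UMIs in aged and 168 in young cells, mostly of the cytoskeletal gene Vim (204 in aged and 102 in young). The B-1 list summed to 330 UMIs in aged and 206 in young cells, with none of its 4 measured members at 2-fold. The marginal zone list summed to 218 UMIs in aged and 108 in young cells. Of its 3 measured members only Plac8 was at 2-fold or more, and the median log2 ratio was 0.005. Among all measured genes outside the Jchain-rich group, 3.4% were 2-fold higher and 4.64% lower in aged cells.

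Between the ages, 2187 genes had at least 30 UMIs in the B cells of both libraries together. At 2-fold or more, 86 (3.93%) were higher and 156 (7.13%) lower in aged B cells, and the median log2 ratio was -0.10. Scaled without immunoglobulin genes, 107 were higher and 128 lower, and with the median set to 0, 111 were higher and 126 lower. Fewer genes were measured, and fewer were 2-fold apart, without the Jchain-rich cells. Without these 9 cells, 1854 genes were measured, 63 (3.4%) were higher, 86 (4.64%) were lower and the median was 0.01. The values that follow are for the other B cells, 74 aged cells with 201870 UMIs and 48 young cells with 155817 UMIs, unless all B cells are named.

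Several of the genes with the highest ratios in all B cells were transcripts of the Jchain-rich cells. Ighm had 1054 UMIs in aged and 79 in young B cells (log2 ratio 3.00), and 95 in aged and 79 in young cells (log2 ratio -0.11) without the Jchain-rich cells. Iglc1, the lambda constant region of the Ighv7-3 cells, had 346 UMIs in aged and 11 in young B cells (4.24), and a log2 ratio of 0.30 without them. Ly6a, the surface protein Sca-1, had 576 UMIs in aged and 36 in young B cells (3.26), of which 490 were in the aged Jchain-rich cells, and 0.88 without them. Cd52, a surface glycoprotein of lymphocytes, had 1668 UMIs in aged and 189 in young B cells (2.40), of which 1429 were in the aged Jchain-rich cells, and 0.04 without them. These counts lay mostly in few cells. The Jchain-rich Ighv7-3 cells had 307 and 132 UMIs of Ly6a, 422 and 501 of Ighm, and 772 and 336 of Cd52. Another aged Jchain-rich cell had 291 Cd52 UMIs. The young Jchain-rich cell had 10 UMIs of Cd52 and 0 of Ly6a. For Pycard, an inflammasome adaptor, the log2 ratio was 2.83 in all B cells and 0.30 without the Jchain-rich cells. For Rgcc it was 2.43 in all B cells and -0.96 without them, and for Glipr1 2.36 in all B cells and -0.37 without them. Genes of myeloid cells were also among the highest 12. Fcer1g had 64 UMIs in aged and 4 in young B cells (3.26), Cybb 69 in aged and 6 in young (2.78), Lyz2 337 in aged and 33 in young (2.61) and Lgals3 58 in aged and 6 in young (2.53). Without the Jchain-rich cells and the 2 aged cells with 10 or more Lyz2 UMIs, Fcer1g had 13 UMIs in aged and 4 in young cells (1.45, -0.24 to 3.53), Cybb 34 in aged and 6 in young, Lyz2 134 in aged and 33 in young and Lgals3 21 in aged and 6 in young. Lgals3 stood at -1.72 without B cells that held a UMI of the selected genes of other cell types. The remaining gene of the 12 was Ass1, an enzyme of arginine synthesis, with 28 UMIs in aged and 2 in young B cells (3.07).

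The gene list with the most members at 2-fold in the other B cells was that of immediate early and activation genes, which are switched on within minutes of antigen receptor signalling and other stimuli, cell dissociation among them. Of the 26 genes of this list, 24 were measured. All 24 were lower in aged cells, 12 of them at 2-fold or more, against 4.64% of all measured genes, with a median log2 ratio of -1.02. In all B cells, 24 of 25 were lower and 17 at 2-fold or more, against 7.13% of all measured genes. The exception was Rgs1, a brake on chemokine receptor signalling, with 39 UMIs in aged and 3 in young B cells. Outside the Jchain-rich group it had 12 in aged and 3 in young cells, too few to be measured there. The summed level of the list was 18799 CPM in aged and 35080 CPM in young other B cells (log2 ratio -0.90, -0.96 to -0.84).

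Nfkbid, a nuclear regulator of NF-kappaB induced by the antigen receptor, had 43 UMIs (213 CPM) in aged and 128 UMIs (821 CPM) in young cells, a log2 ratio of -1.95 (-2.48 to -1.44). Egr1, a transcription factor of antigen receptor signalling, had 183 UMIs (907 CPM) in aged and 437 (2805 CPM) in young cells (-1.63, -1.89 to -1.38). Myc, the growth factor-induced transcription factor, had 69 UMIs (342 CPM) in aged and 153 (982 CPM) in young cells (-1.52, -1.95 to -1.10). These genes were more than 2-fold lower in aged cells, and their intervals exclude equal levels. Fibroblasts also carried Egr1, at 6641 CPM in aged and 9269 CPM in young cells. Nfkbid (8.31 and 12.2 CPM) and Myc (39.5 and 34.6 CPM) were low there. The fibroblast gene Dcn stood at 1357 CPM in aged and 2497 CPM in young other B cells, and at 9574 and 10558 CPM in fibroblasts. The part of fibroblast RNA in the values of this list was not tested. Nr4a1, a nuclear receptor used as a reporter of antigen receptor signalling, had 391 UMIs (1937 CPM) in aged and 634 (4069 CPM) in young cells (-1.07). Cd69, an early activation antigen, had 65 UMIs in aged and 104 in young cells (-1.05), and Fos, a subunit of the AP-1 transcription factor, 364 in aged and 537 in young cells (-0.93). Klf6 was at the small end of the list at -0.21, and its interval and those of Fosb and Rgs2 hold equal levels.

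The difference was spread over cells rather than carried by a few. The list took a lowest, median and highest share of 0.53%, 1.65% and 6.38% of a cell's UMIs in aged cells, against 0.80%, 2.93% and 7.21% in young cells. The quartiles were 1.21% and 2.09% in aged cells, against 1.69% and 4.09% in young cells. Only 4 of 74 aged cells lay above the young median, and 36 of 48 young cells lay above the aged median, so the 2 sets of cells overlapped in range. Myc was detected in 29.7% of aged and 62.5% of young cells, and in 16.7% of aged and 45.8% of young cells after every cell was thinned to 1000 UMIs, which left out 2 aged cells and 0 young cells. In RPE cells it was found in 1.18% of aged and 2.11% of young cells. Nfkbid was detected in 39.2% of aged and 62.5% of young cells, and in 16.7% of aged and 41.7% of young cells after thinning.

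**Figure D2:**
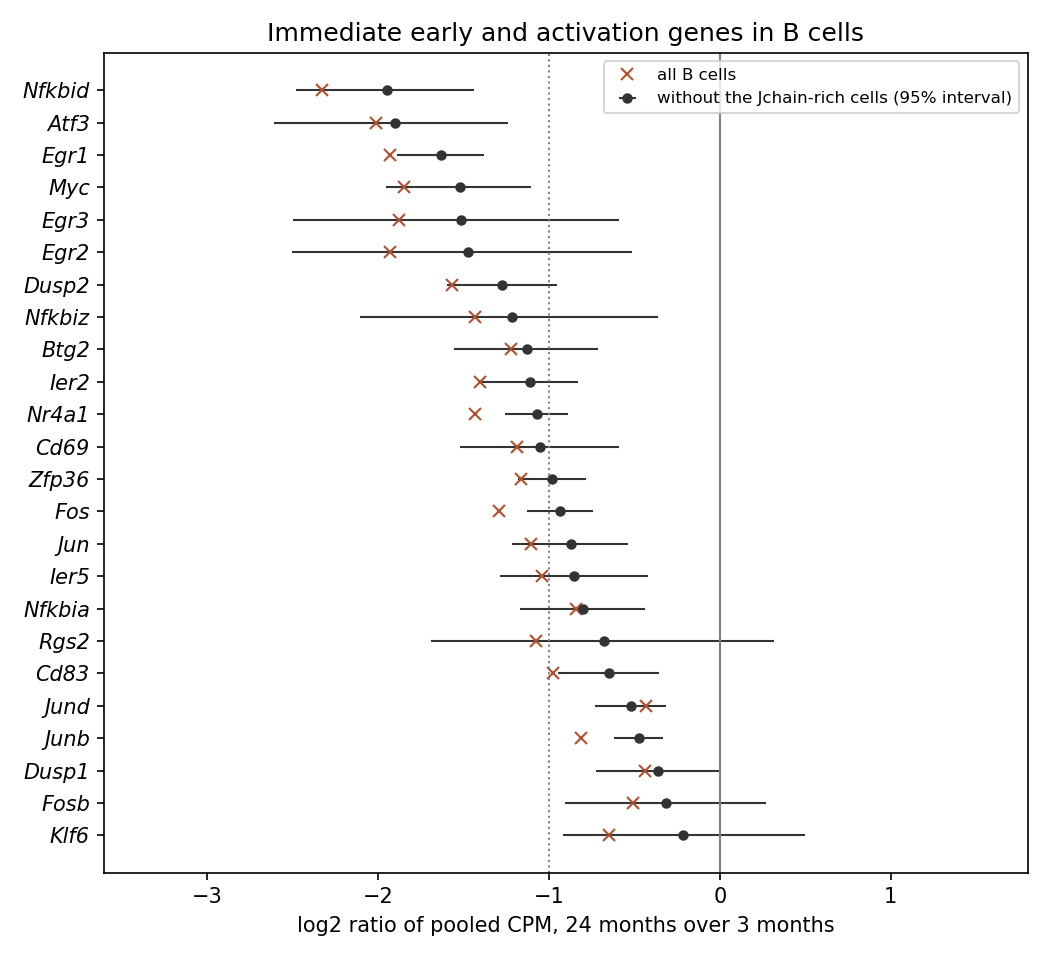
Log2 ratio of CPM, aged over young, of each measured immediate early and activation gene, with circles and exact 95% counting intervals for the B cells outside the Jchain-rich group, crosses for all B cells and a dotted line at a 2-fold lower level. All 24 circles lie below 0.

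The same list was also lower in several other cell classes of the aged library. Its summed level was 25336 CPM in aged and 40255 CPM in young C1q macrophages (log2 ratio -0.67), and the log2 ratio was -0.40 in fibroblasts and -0.32 in endothelial cells. T cells had 20809 CPM in the aged and 22707 CPM in the young library (-0.13), and RPE cells 4622 CPM in the aged and 4561 CPM in the young library (0.02). The value in B cells, -0.90, was the lowest of the 6 classes, and no test of the difference between classes was possible with 1 library per age. Single genes could differ in direction between classes: in T cells Nfkbid stood at 1.62, with 501 UMIs in aged and 11 in young cells. Myc stood at 0.79 there, with 230 UMIs in aged and 9 in young cells. The interval of its young level, 14.8 to 61.5 CPM, holds the aged level of 56.1 CPM. Heat shock genes, which are also induced by dissociation, had a median log2 ratio of 0.16 over 6 measured genes of 8 listed. None of these 6 was 2-fold apart, against 3.4% of all measured genes higher and 4.64% lower. Hspa1a and Hspa1b of this list had too few UMIs in B cells to be measured, and both were lower in aged B cells. Hspa1a had 5 UMIs (24.8 CPM) in aged and 13 (83.4 CPM) in young cells. Hspa1b had 4 UMIs (19.8 CPM) in aged and 21 (134.8 CPM) in young cells. Both were also lower in aged C1q macrophages, fibroblasts, endothelial cells and RPE cells. In aged T cells Hspa1b was lower and Hspa1a higher. The part of dissociation in these values was not tested.

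**Figure D3:**
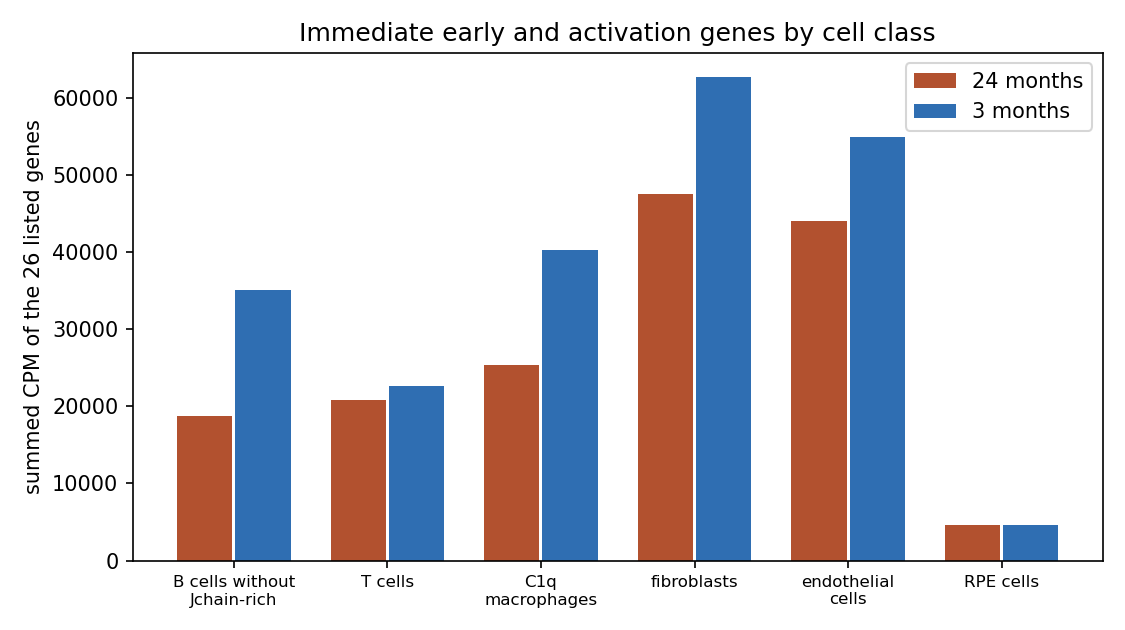
Summed level of the immediate early and activation list by cell class, in CPM, with the aged library left of the young library in each class. The gap between the ages is widest in B cells outside the Jchain-rich group, at 18799 CPM in aged and 35080 CPM in young cells, and RPE cells hold nearly equal levels.

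Of 9 measured genes of mature naive and follicular B cells, 8 had a ratio below equality and 1 above, against 907 of all 1854 measured genes below. None was 2-fold lower, against 4.64% of all measured genes, and the median was -0.66. In all B cells 5 were 2-fold or more lower, against 7.13% of all measured genes. Fcer2a, the low-affinity IgE receptor CD23 of follicular B cells, had 45 UMIs (223 CPM) in aged and 69 (443 CPM) in young cells (-0.99, -1.57 to -0.43), and was detected in 37.8% of aged and 62.5% of young cells (20.8% of aged and 35.4% of young cells after thinning). It was found in no RPE cell of either age. Ighd, the IgD heavy chain coexpressed with Ighm in naive cells, had 27 UMIs (134 CPM) in aged and 36 (231 CPM) in young cells (-0.79, -1.56 to -0.03). It was detected in 27.0% of aged and 54.2% of young cells, but in 16.7% of aged and 22.9% of young cells after thinning, a single random draw. Another draw, over all B cells, found it in 13.8% of aged and 14.3% of young cells. Ccr7, the chemokine receptor for lymph nodes, had 217 UMIs in aged and 170 in young cells (-0.02), and Fcmr, the IgM receptor, 120 in aged and 90 in young cells (0.04). In CPM, Ccr7 and Fcmr were thus near equal between the ages while Fcer2a and Ighd were lower.

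**Figure D4:**
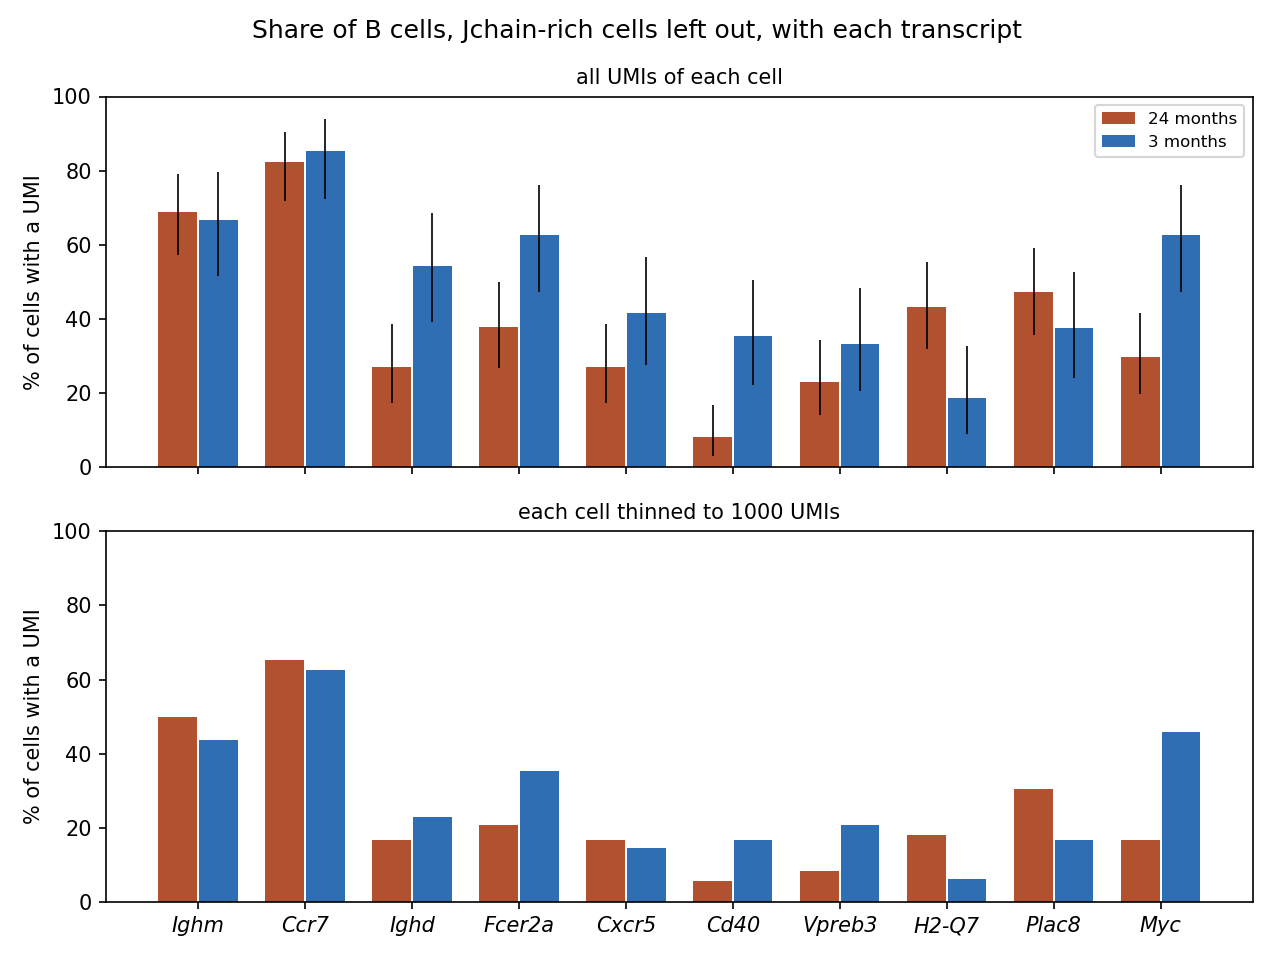
Percent of B cells outside the Jchain-rich group with a UMI of the named genes, aged left of young, with all UMIs and exact 95% binomial intervals in the upper panel and with cells thinned to 1000 UMIs in the lower panel. With all UMIs, Ighm is detected in 68.9% of aged and 66.7% of young cells, and Ighd in 27.0% of aged and 54.2% of young cells.

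Of 15 measured genes of the antigen receptor and its signalling, none was 2-fold apart in either direction, and the median was -0.14. Among all measured genes, 3.4% were 2-fold higher and 4.64% lower. B lineage transcription factors had a median of -0.33 over 13 measured genes, and 1 of them was 2-fold lower, against 4.64% of all measured genes. That gene was Irf4, a factor of activation and of plasma cell formation, with 15 UMIs in aged and 29 in young cells (-1.32). Ebf1, which maintains B cell identity, stood at -0.54.

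Survival and costimulation receptors had a median of -0.59 over 6 measured genes. None was at 2-fold, against 3.4% of all measured genes higher and 4.64% lower. Cd40, the receptor for T cell help, fell short of 30 UMIs without the Jchain-rich cells. It had 6 UMIs in aged and 18 in young cells and was detected in 8.11% of aged and 35.4% of young cells (5.56% of aged and 16.7% of young cells after thinning). Gpr183, a receptor that positions B cells in lymphoid tissue, had 33 UMIs in aged and 62 in young cells (-1.28). It was the homing receptor that was 2-fold lower among 8 measured, against 4.64% of all measured genes. Vpreb3, a gene of developing B cells that mature cells also express, had 24 UMIs in aged and 41 in young cells (-1.15).

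Of 13 measured MHC class I genes, 9 had a ratio above equality, against 947 of all 1854 measured genes. At 2-fold or more 2 were higher, against 3.4% of all measured genes, and the median was 0.25. H2-Q7, a nonclassical class I gene, had 47 UMIs in aged and 11 in young cells (1.72, 0.75 to 2.82). It was detected in 43.2% of aged and 18.8% of young cells (18.1% of aged and 6.25% of young cells after thinning), against 1.81% of aged and 0.379% of young RPE cells. Tap1, a subunit of the peptide transporter, had 24 UMIs in aged and 7 in young cells (1.40). B2m, the light chain shared by class I molecules, stood at 0.40. H2-Q7 was near equal in T cells at 0.03 and higher in aged fibroblasts at 2.89.

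MHC class II genes were near equal, with a median of -0.06 over 10 measured genes. Cd74 had 3924 UMIs in aged and 3368 in young cells (-0.15), and H2-Aa stood at -0.16. The only member at 2-fold or more was Ctss, against 3.4% of all measured genes. This protease, which processes the invariant chain, had 104 UMIs in aged and 39 in young cells (1.04). Ctss is also abundant in myeloid cells, and without the 2 aged B cells that had 10 or more Lyz2 UMIs its log2 ratio was 0.71.

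Of 10 measured interferon-stimulated genes, 9 had a ratio above equality, against 947 of all 1854 measured genes, with a median of 0.55. At 2-fold or more 2 were higher, Ifitm3 and Ifi27, against 3.4% of all measured genes. The list summed to 1048 UMIs in aged and 575 in young cells. The 2 aged cells with 10 or more Lyz2 UMIs held 97 and 127 of the aged UMIs. The cell with 127 was the member that went against the B cell label. Ifitm3, a restriction factor for viral entry, had 162 UMIs in aged and 60 in young cells (1.06), with 53 of the aged UMIs in a single cell, and stood at -0.18 without the 2 Lyz2-rich cells. Ly6e, a surface protein induced by interferon, had 413 UMIs in aged and 240 in young cells (0.41). Ifi27 had 28 UMIs (139 CPM) in aged and 9 (57.8 CPM) in young B cells, all outside the Jchain-rich group (1.26, 0.14 to 2.53). Its level was higher in RPE cells, at 440 CPM in aged and 212 CPM in young cells. T cells had 227 CPM in the aged and 162 CPM in the young library. The part of background RNA in the Ifi27 of B cells was not tested. Bst2, the antiviral surface protein tetherin, had 28 UMIs in aged and 17 in young cells (0.35, -0.57 to 1.31). Its interval holds equal levels. In all B cells Bst2 had 59 UMIs in aged and 18 in young cells (0.97), so 31 of the 59 aged UMIs were in the 8 Jchain-rich cells.

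Plac8, a gene of marginal zone and other innate-like B cells, had 127 UMIs (629 CPM) in aged and 27 (173 CPM) in young cells (1.86, 1.25 to 2.52). One aged cell held 38 of these UMIs, and without the 2 Lyz2-rich cells there were 75 UMIs in aged and 27 in young cells (1.23). Plac8 was also found in 27.4% of aged and 25.9% of young fibroblasts. Over the 3 measured genes of the marginal zone list, the median log2 ratio was 0.005 and the lowest -0.33. Itgb7, an integrin chain for homing to mucosa, had 17 UMIs in aged and 4 in young cells. Itgb2, the shared beta chain of leukocyte integrins, had 23 UMIs in aged and 6 in young cells (1.57), with 15 in 1 aged cell, and stood at -0.03 without the Lyz2-rich cells. The Itgb2 count thus rested on 1 cell. The plasma cell list had 4 measured genes outside the Jchain-rich group, and it summed to 140 UMIs in aged and 99 in young cells (0.13). Irf4, given above, was 2-fold lower. The secretory genes Mzb1 (57 UMIs in aged and 21 in young cells, 1.07) and Txndc5 (25 in aged and 6 in young cells, 1.69) were 2-fold or more higher in aged cells, against 3.4% of all measured genes. Without B cells that held a UMI of the selected genes of other cell types, the log2 ratio of Txndc5 over the B cells left was -0.32.

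Transcripts of other cell types were present in B cells of both libraries and differed between them. Pmel, a pigment granule gene of melanocytes, was found in 1.35% of aged and 56.3% of young other B cells. The shares in cells that should lack it were alike, at 3.25% of aged and 54.2% of young T cells and 3.68% of aged and 57.0% of young fibroblasts, so Pmel in B cells is read here as background RNA. In all B cells Pmel had 1 UMI in aged and 56 in young cells (-6.55), and Mlana 2 in aged and 48 in young (-5.32). Tyrp1 had 9 UMIs in aged and 46 in young (-3.09) and Dct 17 in aged and 82 in young (-3.01), and these 4 melanocyte genes were among the 12 lowest ratios. Lyz2 ran the other way, in 73.0% of aged and 39.6% of young other B cells, against 79.6% of aged and 42.4% of young T cells and 75.2% of aged and 34.8% of young fibroblasts. The RPE genes summed to 12736 CPM in aged and 6995 CPM in young other B cells. The fibroblast genes summed to 2041 CPM in aged and 3421 CPM in young other B cells. Of the T and NK cell list, 3 UMIs were found in aged and 2 in young other B cells, with none of Trbc1 and Trbc2. The part of these transcripts in the differences above was not tested beyond the cells left out.

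A few members carried more than the background. Beside the aged cell with 109 Lyz2 UMIs, another aged cell had 84 Lyz2 UMIs with 9 of Cd79a and 17 of Igkv14-100. The neutrophil genes S100a8 and S100a9 had 55 and 106 UMIs in 1 aged cell and none in other members. Among the lowest ratios in all B cells, the chemokine gene Ccl4 had 5 UMIs in aged and 42 in young B cells (-3.81) with 19 in 1 young cell, and Spp1, the secreted protein osteopontin, 6 in aged and 44 in young B cells (-3.61) with 31 in 1 young cell. Such values describe single cells. Rasl11a, a small GTPase, had 8 UMIs in aged and 39 in young B cells (-3.02), Cdkn1c, a cell cycle inhibitor, 7 in aged and 32 in young (-2.93), and Mdk, a growth factor, 9 in aged and 34 in young (-2.66). Rasgef1b, an exchange factor for Ras family proteins, had 17 in aged and 53 in young B cells (-2.38). Adamts1, a secreted protease, had 8 in aged and 39 in young B cells (-3.02). It stood at 0.60 without B cells that held a UMI of the selected genes of other cell types. For each of these 5 genes a young cell held 11 to 13 of the UMIs.

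**Figure D5:**
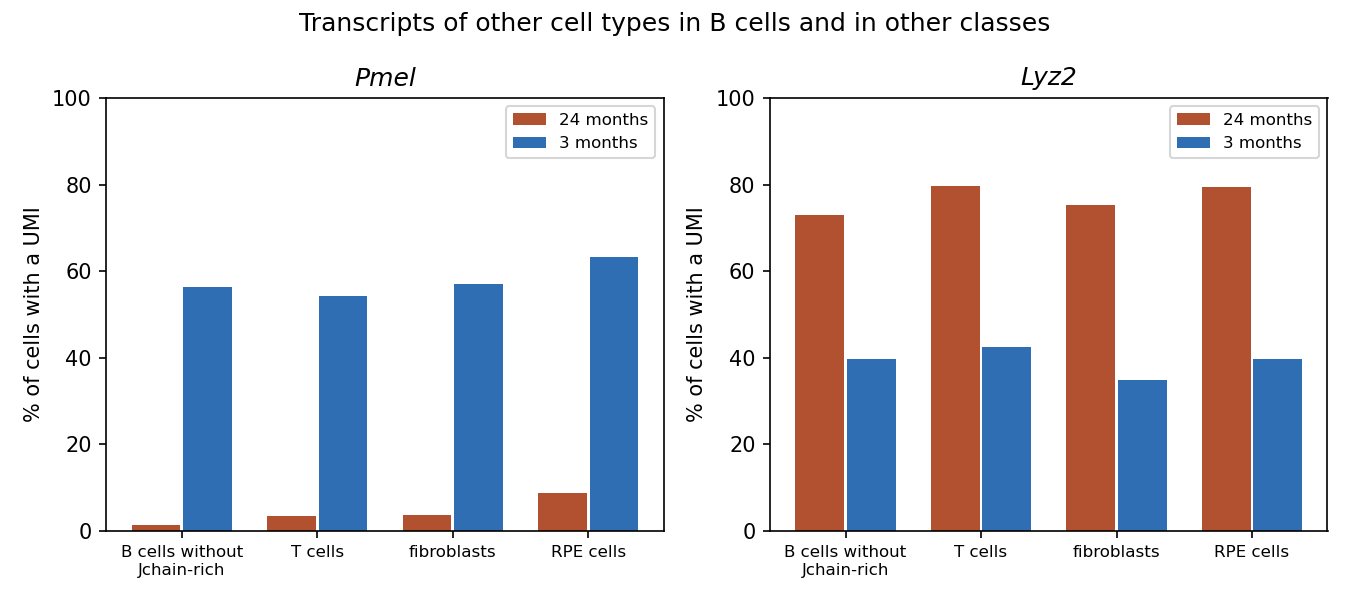
Percent of cells with a UMI of Pmel (left panel) and Lyz2 (right panel) in B cells outside the Jchain-rich group and in T cells, fibroblasts and RPE cells, with aged left of young. Pmel is found in 1.35% of aged and 56.3% of young B cells and in near-equal shares of T cells and fibroblasts of the same libraries.

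In the bulk eye cups of old mice, 2 with TRULI and 2 controls, B cell transcripts were low or listed at 0. Cd79a had 0.66 and 0.73 TPM (transcript abundance scaled by length and to a common total) in TRULI eye cups and was listed at 0 in both controls. Cd79b had 0.06 and 1.86 TPM in TRULI eye cups and 0.78 and 0.29 TPM in controls, and Ms4a1 had 0.02 and 0.40 TPM in TRULI eye cups and was listed at 0 in both controls. The mean of log2(TPM + 1) over these 3 genes was 0.61 ± 0.46 in TRULI eye cups and 0.20 ± 0.11 in controls (SD, n = 2 each). The difference of 0.41 had an exact two-sided permutation p of 0.333, the smallest this design can give. Without TRULI replicate 2 the difference was 0.08. Ighm, which B cells and plasma cells share, had 7.19 and 13.0 TPM in TRULI eye cups and 2.95 and 3.97 TPM in controls, with no overlap. Igkc went the other way in part, with 12.7 and 28.3 TPM in TRULI eye cups and 28.2 and 37.0 TPM in controls. Igha had 8.51 and 2.38 TPM in TRULI eye cups and 10.7 and 10.4 TPM in controls, with no overlap in the opposite direction to Ighm. Jchain had 3.99 and 2.24 TPM in TRULI eye cups and 3.75 and 5.40 TPM in controls, and these ranges overlapped. Blood transcripts differed between the groups as well, with 170 and 137 TPM of the hemoglobin gene Hbb-bs in TRULI eye cups and 556 and 388 TPM in controls. Fewer B cells and less RNA per B cell cannot be told apart in bulk tissue, and the part of blood was not tested.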

How the data were processed

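UMI counts per gene and cell were deposited by the authors for 1 aged and 1 young library. The study and the submitters' processing notes name Cell Ranger 6.0.1 and the mouse build mm10. Gene values of the bulk eye cups were deposited by the authors as TPM. For the bulk libraries of the series the notes name STAR 2.7.3a and 2.7.10b, RSEM and the builds GRCm39 and GRCh38. The depth behind a TPM value is unknown. No per-sample column lacked a sample (0 columns).

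Cells were selected as the report states. The members, gene lists and tests were chosen with earlier results of these data known. UMIs were summed over the B cells of a library and divided by their total to give CPM. A ratio has an exact conditional binomial interval, a level an exact Poisson interval and a share a Clopper-Pearson interval, each at 95%. They cover counting error only. A gene was measured with at least 30 UMIs in both libraries together, and 2-fold was the size at which genes were counted. Named genes were the 12 highest and 12 lowest ratios among genes found in at least 10% of the B cells of a library, up to 4 members of each list, the constant regions, subset markers near 0, Bst2 and Ifi27. Jchain-rich and Lyz2-rich cells had at least 10 UMIs of the gene, and both groups were set after the data were seen. Genes named outside this rule for cells chosen after their values were seen are those that describe Jchain-rich cells, single cells or background.

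A few genes of the lists are not reported here. Doublets were scored with Scrublet in scanpy 1.11.5 at an expected rate of 0.08. The automatic threshold was 0.286 in the aged library and 0.654 in the young library, where it marked 0 cells, so 0.286 was used in both (609 aged and 567 young kept cells). Doublets were left out only as an alternative. The ratio intervals were tested on simulated data. Python 3.11.15, numpy 2.4.6, scipy 1.17.1, pandas 2.3.3 and matplotlib 3.10.9 were used.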

Additional observations from a re-analysis of the deposited data

Results flagged for a closer look

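In the aged library, 9 kept cells outside the B cell gate had 10 or more Jchain UMIs, against 0 in the young library. They held 22 to 511 Jchain UMIs, 4 of them were IgA cells and 5 IgM cells, and 6 lacked the B cell marker UMIs that the gate asks for. The comparison of B cells between the ages does not use them. They stand out because they carry an antibody signal in cells that the comparison leaves aside.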

How the results depend on the processing

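With 1 library per age no setting gives a test, and depth limits genes under 30 UMIs. Without B cells that held a UMI of the selected genes of other cell types, 19 aged and 25 young cells were left. The share ratio then reversed to a log2 of -0.35 (0.125% of aged and 0.160% of young kept cells). With no limit on RPE markers its log2 was 1.01. Genes 2-fold higher and lower in aged cells numbered 19 and 30 at 100 UMIs or more, 799 and 1935 with 1 UMI in each library, 24 and 30 with cells thinned to 1000 UMIs, and 48 and 83 without Jchain-rich and Lyz2-rich cells. The lower genes numbered 86 without Jchain-rich cells and 42 without cells with UMIs of other types. Of all genes 2-fold apart, 64.5% were lower, against 54.5% scaled without immunoglobulin genes, 53.2% centred on the median and 40% without cells with UMIs of other types. Ighd was found in 7.32% of aged and 18.4% of young B cells at 2 UMIs or more, in 13.8% and 14.3% thinned to 1000 UMIs, and in 3.66% and 8.16% thinned to 500 UMIs. Reversed log2 ratios were, thinned, Rgcc -0.29; without cells with UMIs of other types, Lgals3 -1.72, Adamts1 0.60, Txndc5 -0.32, Itgb2 -0.72, Atf3 0.013, Tyrobp -0.14 and Dcn 1.18; without Jchain-rich cells, Ighm -0.11, Rgcc -0.96 and Glipr1 -0.37; and without Lyz2-rich cells as well, Ighm -0.013, Rgcc -0.83, Glipr1 -0.25 and Itgb2 -0.026. Over 83 genes, 729 values stayed within their interval, 103 moved and 15 reversed. The median of the immediate early list ran from -1.23 to -0.95. In the bulk eye cups the difference was 1.41 with a pseudocount of 0.1 and 0.08 to 0.73 with 1 library left out, and with a replicate block it was 0.41 (exact p 0.5). The setting of mean CPM over cells gave no finite median for the neutrophil list. The cause of each change was not tested.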
